A study of Homo sapiens with 42 samples.

Results

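The genes described are 44 genes of the lysosome. They were chosen by name, as the rows of both count tables whose Ensembl gene ID maps to 1 of 44 listed symbols, out of 58243 gene IDs in all. By role they comprise 6 membrane proteins, 3 lumenal transfer and precursor proteins, 8 peptidases, 9 glycan-degrading enzymes (glycosidases and the sulfatase SGSH), 3 lipid hydrolases, 5 subunits of the V0 sector and 8 of the V1 sector of the V-ATPase, and the transcription factors TFEB and TFE3. The rule uses no measured value, but the members were chosen with earlier results of these data known. The same holds for the further genes and the promoter letters below. Shares of these lists beside those of all genes are therefore descriptions. Of the 44, 43 passed the filter on low counts in both RNA fractions. The exception was LIPA, the acid lipase of the lysosome, with 1 to 5 counts per library in untreated mRNA.

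Lysosomes are acidic compartments in which cells break down proteins, glycans and lipids delivered by endocytosis and autophagy. The V-ATPase, a rotary proton pump made of a membrane-embedded V0 sector and a cytosolic V1 sector, acidifies them, and soluble hydrolases do the degradation. Many genes of this set carry E-boxes in their promoters that are bound by TFEB, TFE3 and related factors, whose entry into the nucleus is controlled by mTORC1 through phosphorylation, so that their activity can change with no change in their own RNA.

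All libraries came from K562, a single established human line derived from chronic myeloid leukaemia that depends on the BCR-ABL1 kinase. Cells were untreated (CTRL) or received 1 µM imatinib (IM), which inhibits that kinase, for 1, 6 or 18 h, or 5 µM JTE-607 (JTE), which inhibits the 3′ end processing nuclease CPSF73, for 1, 6 or 18 h, or 110 mM KCl, an osmotic stress, for 1 or 3 h. Poly(A) mRNA of whole cells was sequenced for these 9 groups (27 libraries), and nuclear RNA depleted of ribosomal RNA for CTRL, IM 1h, IM 18h, JTE 1h and KCl 1h (15 libraries). Each group held 3 biological replicates. A single CTRL group per fraction serves every comparison, so the comparisons are not independent. The labels give CTRL no time, so in a comparison with CTRL the treatment and the time in culture cannot be told apart.

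Totals per library ran from 16439848 to 22505595 counts in mRNA, apart from KCl 1h replicates 2 and 3 with 62953314 and 42474454, and from 16175394 to 25103205 in nuclear RNA. Testing covered 18095 genes in mRNA and 21929 in nuclear RNA. A gene was called at an adjusted p under 0.05 (edgeR's quasi-likelihood test, Benjamini-Hochberg over all genes tested) together with a log2 fold change beyond 0.6 either way. The share of all genes with an unadjusted p under 0.05 was not counted, so counts of members at that level have no background. Fold changes are given on the log2 scale with their standard error (SE). Levels are given as CPM, counts scaled to a common library size with TMM factors. Where genes are compared with each other they are given as TPM, which divides by exon length and uses no TMM factor. These are relative abundances in bulk RNA, in which fewer cells with a transcript and less of it per cell cannot be told apart. Of 10 erythroid and megakaryocytic markers of K562, none was under 1 CPM in any group, whereas 4 macrophage markers (CD14, CSF1R, MRC1, MARCO), a lysosome-rich cell type, summed to between 0.21 and 0.836 CPM in untreated mRNA and stayed between 0.165 and 0.326 CPM in IM 18h. A wider list of 13 markers of other cell types, which includes those 4, summed to between 106 and 108 CPM in CTRL and to between 92.1 and 96.3 CPM in IM 18h. Most of this wider sum was EPCAM, at 95.07, 91.31 and 86.8 CPM in CTRL and 82.21, 88.55 and 86.6 CPM in IM 18h. At 3 h of KCl the macrophage markers summed to between 4.70 and 6.83 CPM.

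Counting sets limits on some members. Read pairs over exons of more than 1 gene were discarded, and 19 members share exon bases with another gene. The share exceeded 20% for ATP6V0C (72.1%), the proteolipid ring subunit of V0, CTSD (52.7%), the aspartic peptidase cathepsin D, CTSA (28.5%), the protective serine carboxypeptidase, and ATP6V1F (23.7%), the V1 subunit F. Their levels may therefore be too low by an unknown amount. Alignments across gaps over 10000 bases were not allowed, which bears on 15 members, among them LIPA, whose longest gap between exons is 70086 bases.

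Promoter windows of 300 bases, from 250 before to 50 after the annotated start, were read from RefSeq (GRCh38.p14). They were present for 31 members in 45 windows. No window was given for ASAH1, ATP6V0E1, ATP6V1A, ATP6V1B2, ATP6V1C1, ATP6V1H, CTSB, HEXA, LAMP2, MANBA, NAGLU, PSAP and SGSH. The letters CACGTG, the E-box core, which reads the same on both strands, occurred in 7.26% of all 35116 windows and in 10 of the 45 member windows, belonging to ATP6V0B, ATP6V0D1, ATP6V1G1, CD63, CTSA, CTSD, GAA, LAMP1, MCOLN1 and NEU1. The 7-letter form TCACGTG, searched on both strands and overlapping the core, stood in 3.71% of all windows and in those of the same members without CD63. The full palindrome TCACGTGA stood in 0.98% of all windows and in 6 member windows, those of ATP6V0D1, ATP6V1G1, CTSA, GAA, LAMP1 and MCOLN1. Member windows were also richer in G and C than all windows, with medians of 69.0% and 58.7%, and the core is itself rich in G and C.

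The window of GAA, acid alpha-glucosidase and the member with the largest rise in mRNA after 18 h of imatinib, holds the full palindrome at 2 places, with the core starting 76 and 31 bases before the start. That of CTSC, the dipeptidyl peptidase cathepsin C and the member with the largest fall, holds no E-box core. The windows of TPP1 and GRN, the members with the next largest rises, hold no CACGTG either. Only CACGTG and its longer forms were searched. The windows of TPP1 and GRN both hold TCACATGA, which differs from the palindrome by a single letter. How often TCACATGA occurs over all windows was not counted. The windows of GAA and CTSC are shown 5′ to 3′ on the gene's strand, with the palindrome in capitals.
GAA (chr17:80101331-80101630, plus strand): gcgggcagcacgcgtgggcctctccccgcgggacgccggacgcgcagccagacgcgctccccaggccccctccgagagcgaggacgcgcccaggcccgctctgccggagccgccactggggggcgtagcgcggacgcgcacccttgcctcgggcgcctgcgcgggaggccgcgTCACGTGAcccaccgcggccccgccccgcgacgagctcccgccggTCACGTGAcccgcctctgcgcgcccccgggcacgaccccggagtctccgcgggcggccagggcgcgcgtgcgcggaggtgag
CTSC (chr11:88337687-88337986, minus strand): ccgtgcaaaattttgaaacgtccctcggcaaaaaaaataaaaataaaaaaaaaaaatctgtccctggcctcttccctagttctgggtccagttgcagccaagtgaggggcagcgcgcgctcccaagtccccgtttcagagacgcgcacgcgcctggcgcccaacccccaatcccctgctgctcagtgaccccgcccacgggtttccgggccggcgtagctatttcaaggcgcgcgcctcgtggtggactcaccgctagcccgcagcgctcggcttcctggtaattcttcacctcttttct

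Stretches of 30 bases around a match are shown for the other members with the 7-letter form, with the matching letters in capitals, so that flanks can be compared. For LAMP1, whose window held 6 cores, the more downstream of 2 palindromes is given, and where a window held both forms the palindrome is given.
LAMP1 (chr13:113297226-113297255, plus strand): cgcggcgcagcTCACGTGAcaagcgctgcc
MCOLN1 (chr19:7522571-7522600, plus strand): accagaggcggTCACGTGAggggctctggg
CTSA (chr20:45891298-45891327, plus strand): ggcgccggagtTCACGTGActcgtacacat
ATP6V0D1 (chr16:67481199-67481228, minus strand): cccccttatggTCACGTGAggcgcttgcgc
ATP6V1G1 (chr9:114587699-114587728, plus strand): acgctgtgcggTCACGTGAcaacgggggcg
CTSD (chr11:1763957-1763986, minus strand): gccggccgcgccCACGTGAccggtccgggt
ATP6V0B (chr1:43974891-43974920, plus strand): ccggcgtggggTCACGTGgtaccggcgcat
NEU1 (chr6:31862930-31862959, minus strand): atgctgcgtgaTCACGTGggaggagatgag

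The 19 cores found began between 192 bases and 1 base before the start, and the last of them, in LAMP1, runs over the start. Of the 10 members with a core in a window, 2 were called higher (GAA, CTSD) and 1 lower (ATP6V0B) in mRNA after 18 h, with a median log2 fold change of -0.07. Of the 21 with a window and no core, 5 were called higher and 3 lower, with a median of 0.21. The number of such members is small, windows without the core may hold other E-box letters, and a match of letters is not a measurement of binding.

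**Figure D1:**
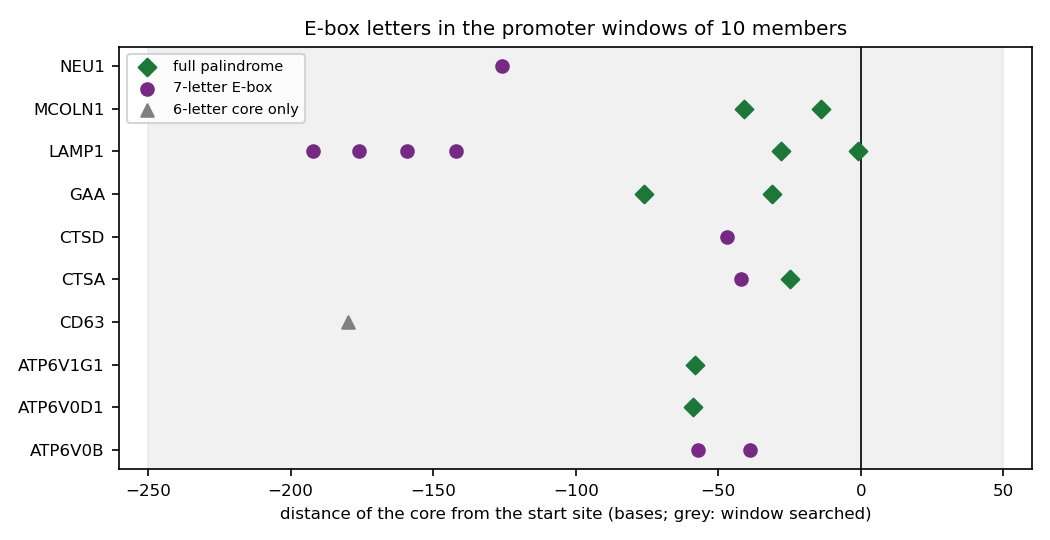
Distance in bases of each E-box core from the annotated start (x axis, shaded: the window searched) for the 10 members with a match (y axis); symbols give the full palindrome, the 7-letter form and the core alone. Cores begin between 192 bases and 1 base before the start, and LAMP1 holds 6, the last of which runs over the start.

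In untreated mRNA the members spanned a wide range of levels. PSAP, the precursor of the saposins that help lipid hydrolases, stood highest at 536 ± 59.5 TPM (SD, n = 3), followed by ATP6V1F at 296 ± 20.6 TPM and the tetraspanin CD63 at 224 ± 37.4 TPM. V-ATPase subunits were uneven in level, from 179 ± 3.27 TPM for ATP6V1G1 to 16.5 ± 1.18 TPM for ATP6V0D1 when ATP6V1F and the overlapped ATP6V0C (2.03 ± 0.629 TPM) are set aside. At the lower end were MANBA, beta-mannosidase, at 4.32 ± 0.887 TPM and GAA at 0.812 ± 0.161 TPM. TFE3 stood at 24.4 ± 4.29 TPM and TFEB at only 0.863 ± 0.235 TPM, and these intervals do not overlap. LIPA was last at 0.0777 ± 0.0789 TPM.

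The first comparison sets 18 h of imatinib against CTRL. Hydrolases changed in both directions, lumenal proteins rose or missed the threshold, no membrane protein was called, and among V-ATPase subunits 1 fell. In IM 18h mRNA 10 of 43 members were called higher and 5 lower than CTRL. Among all genes tested 17.2% were called higher and 13.2% lower, so neither count of members was far from the background. The median log2 fold change was 0.10 over the members and 0.04 over all genes. For each of the 15 called members all 3 treated libraries lay outside the range of the 3 CTRL libraries, which being called makes likely. The share of such genes among all called genes was not counted. Each of the 15 calls held in all 11 alternatives that keep the fold change threshold.

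**Figure D2:**
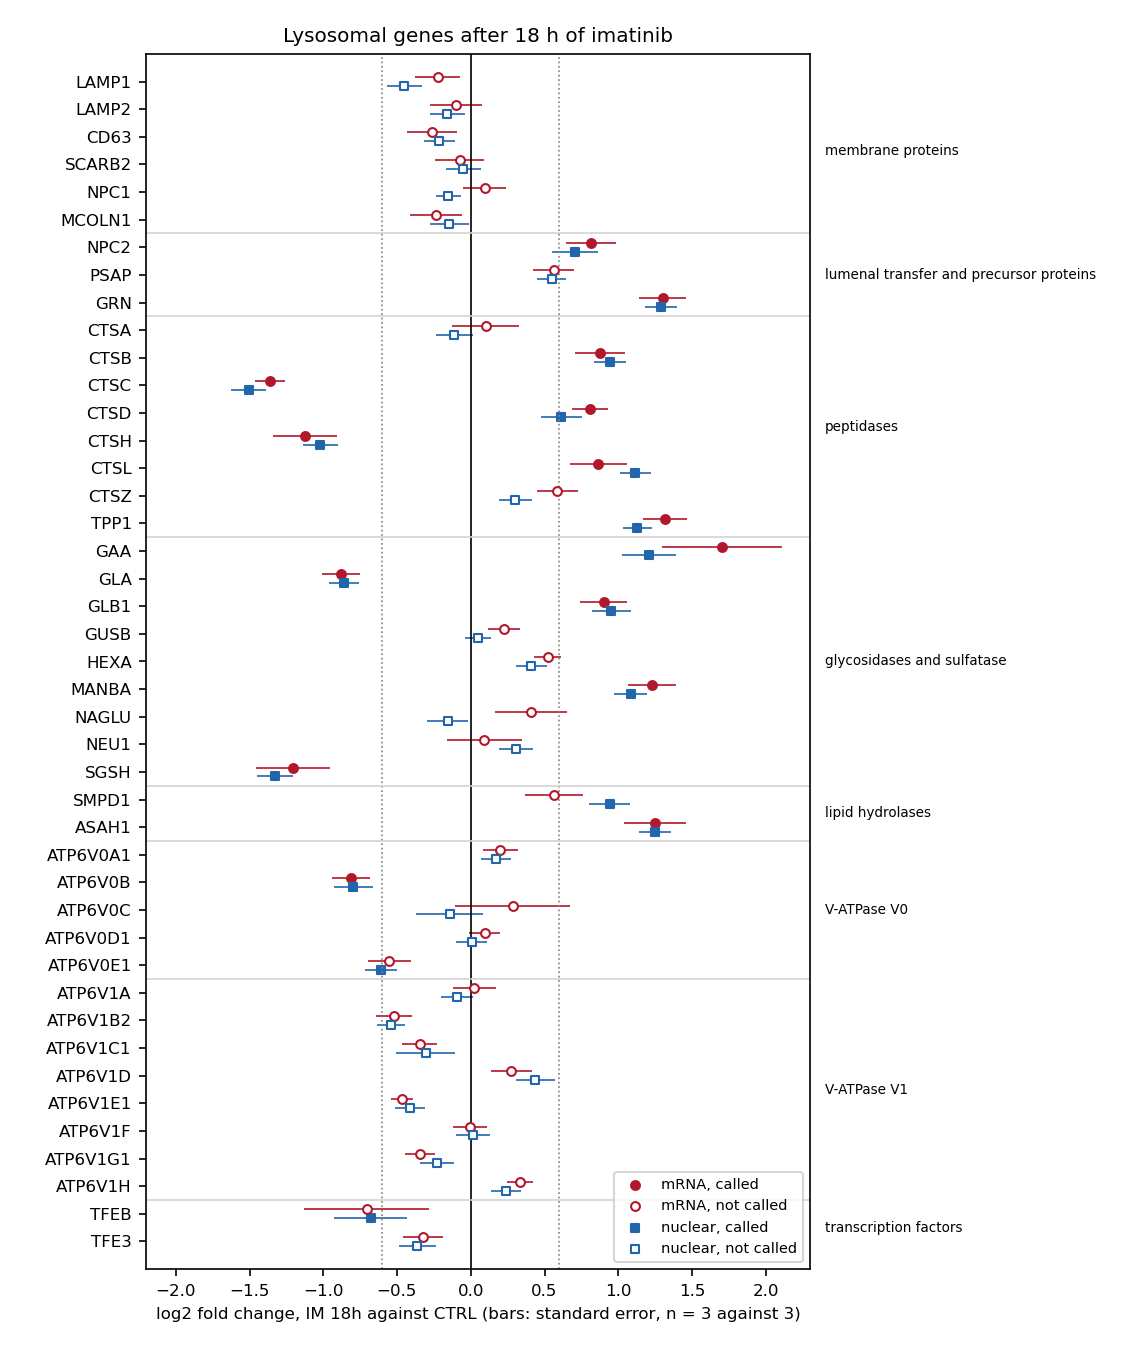
Log2 fold change of IM 18h against CTRL (x axis) for each of the 43 tested members (y axis, grouped by role), in mRNA (red circles) and nuclear RNA (blue squares); filled symbols are called, bars are standard errors, and dotted lines mark 0.6 either way. GAA, TPP1, GRN, ASAH1 and MANBA lie farthest right in mRNA, and CTSC, SGSH and CTSH farthest left in both fractions.

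Among the peptidases, 4 of 8 rose and 2 fell. TPP1, which removes tripeptides from the ends of proteins (ENSG00000166340, chromosome 11, 6612763 to 6619461 on hg38), measured 101, 83.5 and 79.7 CPM in CTRL replicates 1 to 3 and 206, 243 and 209 CPM in IM 18h. The lowest treated library was thus above the highest untreated one by more than the spread within either group (1.32 ± 0.15 on the log2 scale, edgeR adjusted p 2.69e-07). CTSB, a cysteine peptidase, rose by 0.88 on the log2 scale, CTSL, another of that family, by 0.86, and CTSD by 0.81 (edgeR adjusted p 0.000199, 0.00089 and 1.3e-05). CTSD is 1 of the members whose exons largely overlap another gene. CTSC (ENSG00000109861, chromosome 11, 88293592 to 88337787), which activates granule serine proteases, went the other way, from 190.5, 196 and 191 CPM in CTRL to 59.7, 87 and 78 CPM (-1.36 ± 0.10 on the log2 scale, edgeR adjusted p 1.77e-09). CTSH, an aminopeptidase, held 63.6, 78.5 and 90.5 CPM in CTRL and 30.9, 36.9 and 38.9 CPM in IM 18h (-1.12 ± 0.22 on the log2 scale, edgeR adjusted p 0.000214). The groups of both genes were apart. CTSZ, a carboxypeptidase, was higher by 0.59 on the log2 scale, just under the threshold (edgeR adjusted p 0.00143), and CTSA gave 0.10 ± 0.23 (log2 fold change ± SE).

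Of the 9 glycan-degrading enzymes, 3 rose and 2 fell. GAA, which releases glucose from glycogen (ENSG00000171298, chromosome 17, 80101556 to 80119879), had low counts, 23 to 31 per CTRL library. Its levels were 1.32, 1.21 and 1.73 CPM in CTRL and 6.19, 4.05 and 3.63 CPM in IM 18h (1.70 ± 0.41 on the log2 scale, edgeR adjusted p 0.0016), so the groups were apart although the treated replicates spread widely. MANBA went from 9.64, 13.3 and 14 to 25.9, 28.7 and 32 CPM (1.23 ± 0.16 on the log2 scale, edgeR adjusted p 2.29e-06), again without overlap. GLB1, beta-galactosidase, rose by 0.90 (edgeR adjusted p 7.92e-05). SGSH, the sulfatase that acts on heparan sulfate (ENSG00000181523, chromosome 17, 80206716 to 80220923), fell from 11.8, 10.6 and 9.25 to 4.29, 5.37 and 4.07 CPM (-1.20 ± 0.25 on the log2 scale, edgeR adjusted p 0.000474). GLA, alpha-galactosidase A, fell from 36.3, 33.6 and 36 to 16.9, 20.9 and 19.8 CPM (-0.88 ± 0.13 on the log2 scale, edgeR adjusted p 9.3e-06). In both, every treated library was below every CTRL library. The other 4, GUSB, HEXA, NAGLU and NEU1, were not called, with HEXA, a subunit of beta-hexosaminidase, nearest at 0.52 ± 0.09.

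The lumenal proteins and lipid hydrolases moved upwards where they moved. GRN, the precursor of the granulins, was at 29.5, 29.5 and 30.2 CPM in CTRL and 77.3, 73.3 and 69.3 CPM in IM 18h (1.30 ± 0.16 on the log2 scale, edgeR adjusted p 9.82e-07), and its CTRL libraries had the smallest spread relative to the mean of all members. NPC2, which hands cholesterol to NPC1, rose by 0.81 (edgeR adjusted p 0.000501). PSAP gave 0.56 ± 0.14 and stayed under the fold change threshold. ASAH1, acid ceramidase, went from 76.7, 65 and 96.3 to 197, 198 and 169 CPM with no overlap (1.25 ± 0.21 on the log2 scale, edgeR adjusted p 5.04e-05). SMPD1, acid sphingomyelinase, was at 0.56 ± 0.20 and not called.

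None of the 6 membrane proteins was called, and none reached an unadjusted p under 0.05. LAMP1 and LAMP2, the most abundant glycoproteins of the lysosomal membrane, gave -0.22 ± 0.15 and -0.10 ± 0.18, CD63 -0.26 ± 0.17, the receptor SCARB2 -0.08 ± 0.17, the cholesterol exporter NPC1 0.09 ± 0.15 and the cation channel MCOLN1 -0.24 ± 0.18. Of the 13 V-ATPase subunits 1 was called. ATP6V0B, a proteolipid of V0 (ENSG00000117410, chromosome 1, 43974487 to 43978295), fell from 86.6, 75.6 and 86.1 to 42.3, 51.1 and 47.9 CPM (-0.81 ± 0.13 on the log2 scale, edgeR adjusted p 2.04e-05), the treated libraries all below the untreated ones. ATP6V0E1, ATP6V1B2 and ATP6V1E1 followed at -0.55, -0.52 and -0.47, short of the threshold. ATP6V1H, the regulatory subunit of V1, was the highest at 0.33.

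Summed over the 13 V-ATPase genes, CTRL mRNA libraries held 1025.6 ± 21.6 TPM and IM 18h libraries 871 ± 26.7 TPM (SD, n = 3), with no overlap. Summed over the 29 enzymes, transfer and membrane proteins, the level went from 1618 ± 147 to 2084 ± 64.9 TPM. These sums are led by PSAP, ATP6V1F and CD63, and they are given as a description. TPM carries no TMM factor, so the sums also depend on the rest of each library. Mitochondrial genes took 10.0% to 10.9% of mRNA counts in CTRL, 12.5% to 12.7% in IM 18h, 9.60% to 11.8% in JTE 18h and 5.84% to 7.21% in KCl 3h. The haemoglobin gene HBE1 had a mean of 3568 TPM in CTRL mRNA and 13040 TPM in IM 18h. The part of these shares in the sums was not tested. In nuclear RNA the sums were 1183 ± 17.5 and 1063 ± 29.5 TPM for the V-ATPase, and 1996 ± 56.2 and 2590.0 ± 129 TPM for the others, in the same directions. In JTE 18h and KCl 3h mRNA the V-ATPase sums were 1154.5 ± 9.6 and 1160.4 ± 88.4 TPM, and those of the others 1897 ± 72.4 and 1901 ± 162 TPM, all with means above CTRL.

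**Figure D3:**
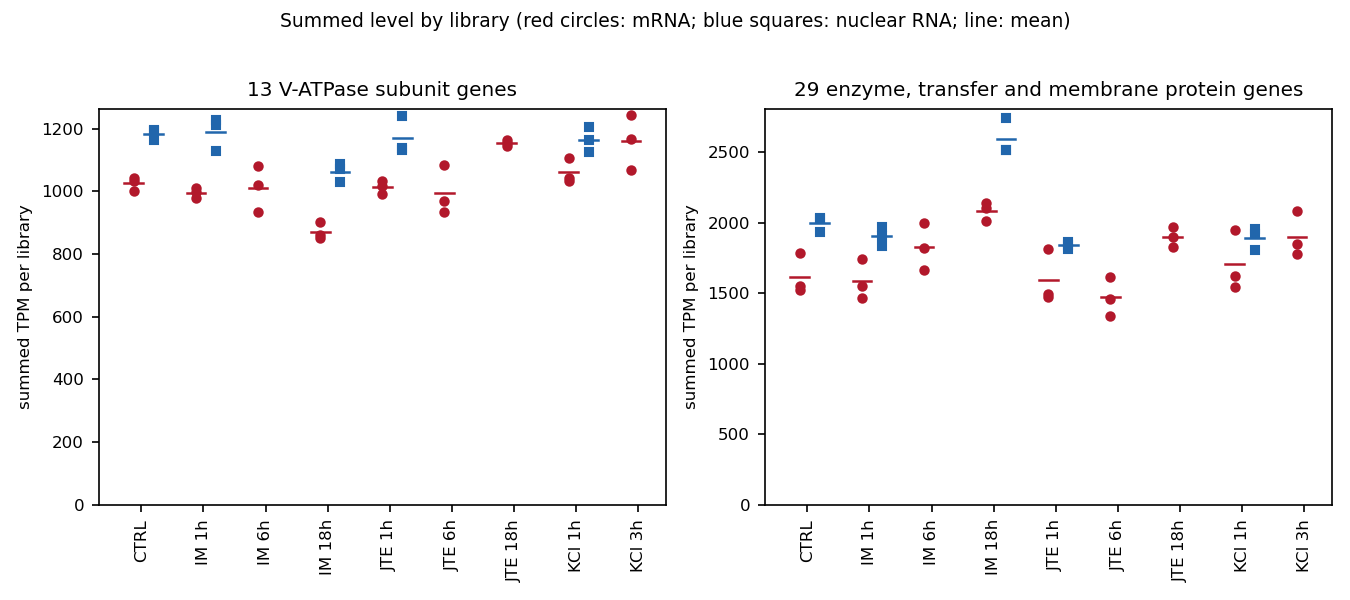
Summed TPM per library (y axis, from 0) for the 13 V-ATPase genes and for the 29 enzyme, transfer and membrane protein genes, by group (x axis); red circles are mRNA libraries, blue squares nuclear libraries and lines the means. The V-ATPase sum is lowest in IM 18h mRNA and the other sum highest in IM 18h nuclear RNA.

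The erythroid markers moved with the same comparison: 8 of the 10 were called higher in IM 18h mRNA and 7 of 10 in nuclear RNA, and their summed level ran from 4292 to 5601 CPM in CTRL and from 11460 to 16110 CPM in IM 18h mRNA. Their part in the lysosomal changes was not tested.

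Nuclear RNA came from other libraries. After 18 h of imatinib 11 of 43 members were called higher and 7 lower, against 17.2% and 15.4% of all 21929 genes tested. All 10 members called higher in mRNA were among the 11 (100% of the mRNA list and 90.9% of the nuclear list). The additional one was SMPD1, from 10, 11.3 and 12.6 to 22, 18.8 and 24.3 CPM (0.94 ± 0.14 on the log2 scale, edgeR adjusted p 1.65e-05). The 7 lower members held the 5 from mRNA together with ATP6V0E1 (-0.61, edgeR adjusted p 0.000113) and TFEB. Across the 43 members the fold changes of the fractions correlated with Pearson's r of 0.968 and Spearman's rho of 0.957, a description over genes that are not independent replicates, and 37 had the same sign. The overlap of calls, the correlations and the signs were not computed over all genes. They cannot be read as particular to the members. The 2 fractions of a group share neither libraries nor CTRL.

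For the members with values given above, the nuclear libraries read as follows. TPP1 went from 84.5, 88.3 and 91.8 to 206, 168 and 204 CPM, GRN from 40.5, 48.4 and 41.9 to 103, 101 and 116 CPM. ASAH1 rose from 56.2, 57.5 and 58.6 to 164, 117 and 128 CPM and MANBA from 14, 17.8 and 14.2 to 34.3, 32.7 and 30.5 CPM. GAA, with 66 to 91 counts per CTRL library here, rose from 3.26, 4.14 and 3.27 to 9.47, 6.79 and 8.43 CPM. In these 5 the treated libraries all exceeded the untreated ones, with edgeR adjusted p between 2.02e-08 and 1.76e-05. CTSC fell from 234, 209 and 219 to 67.8, 90.5 and 74.5 CPM and SGSH from 18.9, 20 and 23.6 to 7.67, 7.84 and 9.48 CPM (-1.51 ± 0.12 on the log2 scale, edgeR adjusted p 5.68e-09 for the former). CTSH went from 107, 109 and 91.9 to 48, 54.4 and 49.4 CPM, GLA from 40.1, 39.3 and 39 to 20.2, 24.4 and 20.8 CPM, and ATP6V0B from 104, 129 and 123 to 56.9, 70.4 and 77.9 CPM. All of these groups were apart. CTSD was called at 0.61, but lost the call without CTRL replicate 1 or without IM 18h replicate 3, and NPC2 (0.71) lost it without IM 18h replicate 3. ATP6V0E1, close to the threshold, lost it in 6 of 11 alternatives, with RLE normalization, with DESeq2, and without any 1 of the CTRL replicates or IM 18h replicate 1.

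Whether the response differed between the fractions was tested as an interaction in 12 libraries. No member was called in either direction (0.0551% and 0.0351% of genes were called higher and lower in nuclear RNA), none had an unadjusted p under 0.05, and the edgeR adjusted p was 1 for the members at both ends. The differences ran from -0.51 for NAGLU, which cleaves N-acetylglucosamine from heparan sulfate, to 0.43 for SMPD1, with a median of 0.02. A test that does not reach the threshold does not show that the responses are equal.

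Earlier times of imatinib gave fewer calls. At 1 h no member was called in mRNA, where 0.0% of genes were called higher and 0.0166% lower, and none had an unadjusted p under 0.05. In nuclear RNA none was called either (0.00456% and 0.041% of genes) and 1 had an unadjusted p under 0.05. At 6 h no member was called higher and 2 lower, against 5.82% and 4.12% of genes. CTSC was at 118, 112 and 105 CPM, below all CTRL libraries (-0.79 ± 0.10 on the log2 scale, edgeR adjusted p 1.54e-05), and so lay between its CTRL and 18 h levels. SGSH was at 6.29, 5.93 and 4.51 CPM, also below CTRL (-0.92 ± 0.25 on the log2 scale, edgeR adjusted p 0.0127). The SGSH call was lost without IM 6h replicate 3 or CTRL replicate 1, leaving 1 called member without the former, while 5 were called without IM 6h replicate 1. All 10 members that rose at 18 h had a log2 fold change above 0 at 6 h and none was called, from 0.21 for CTSL to 0.85 for GAA. These 10 were picked by their rise over the same CTRL libraries, so their signs at 6 h are not independent of that choice. Among all genes 53.8% were positive at 6 h, and the share among all genes called higher at 18 h was not counted. TPP1 was at 99.8, 134 and 139 CPM (0.50 ± 0.14 on the log2 scale, edgeR adjusted p 0.0203) and MANBA at 14.8, 17.7 and 20.5 CPM (0.52 ± 0.16 on the log2 scale, edgeR adjusted p 0.029). ASAH1, whose 6 h libraries read 88.8, 105 and 165 CPM, had replicate 3 close to the 18 h level and replicate 1 within the CTRL range.

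Between 6 and 18 h of imatinib, 5 members were called higher and 1 lower (2.48% and 1.93% of genes). GRN (0.85), TPP1 (0.82), MANBA (0.71), ASAH1 (0.66) and CTSL (0.65) were higher, with edgeR adjusted p from 0.00176 for TPP1 to 0.0498 for ASAH1, and GLA was lower (-0.61, edgeR adjusted p 0.0053). GRN went from 36.3, 38.3 and 47.6 to 77.3, 73.3 and 69.3 CPM and GLA from 32, 31.4 and 24.6 to 16.9, 20.9 and 19.8 CPM, neither with overlap. The GRN and TPP1 calls held in all 11 alternatives. Those of ASAH1 and CTSL were lost in 6 of 11, that of GLA in 3 (without IM 6h replicate 1 or 2 or IM 18h replicate 1) and that of MANBA in 1 (without IM 6h replicate 1), and the total fell to 2 called members without IM 6h replicate 1, to 3 without IM 6h replicate 2 and to 3 without IM 18h replicate 1. A library list of the study gives the totals of CTRL replicates 1 and 2 in reverse order. With these numbers exchanged, same-number correlations of treated mRNA libraries to CTRL ran from 0.0553 to 0.877. Between IM 6h and IM 18h the same-number correlations were -0.0887, 0.25 and -0.301, which the exchange does not alter. With the replicate number as a block and CTRL 1 and 2 exchanged, GAA (0.89, edgeR adjusted p 0.028) and CTSH (-0.68, edgeR adjusted p 0.000896) were called too. The block gave 8 called members both as labelled and with the exchange.

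**Figure D4:**
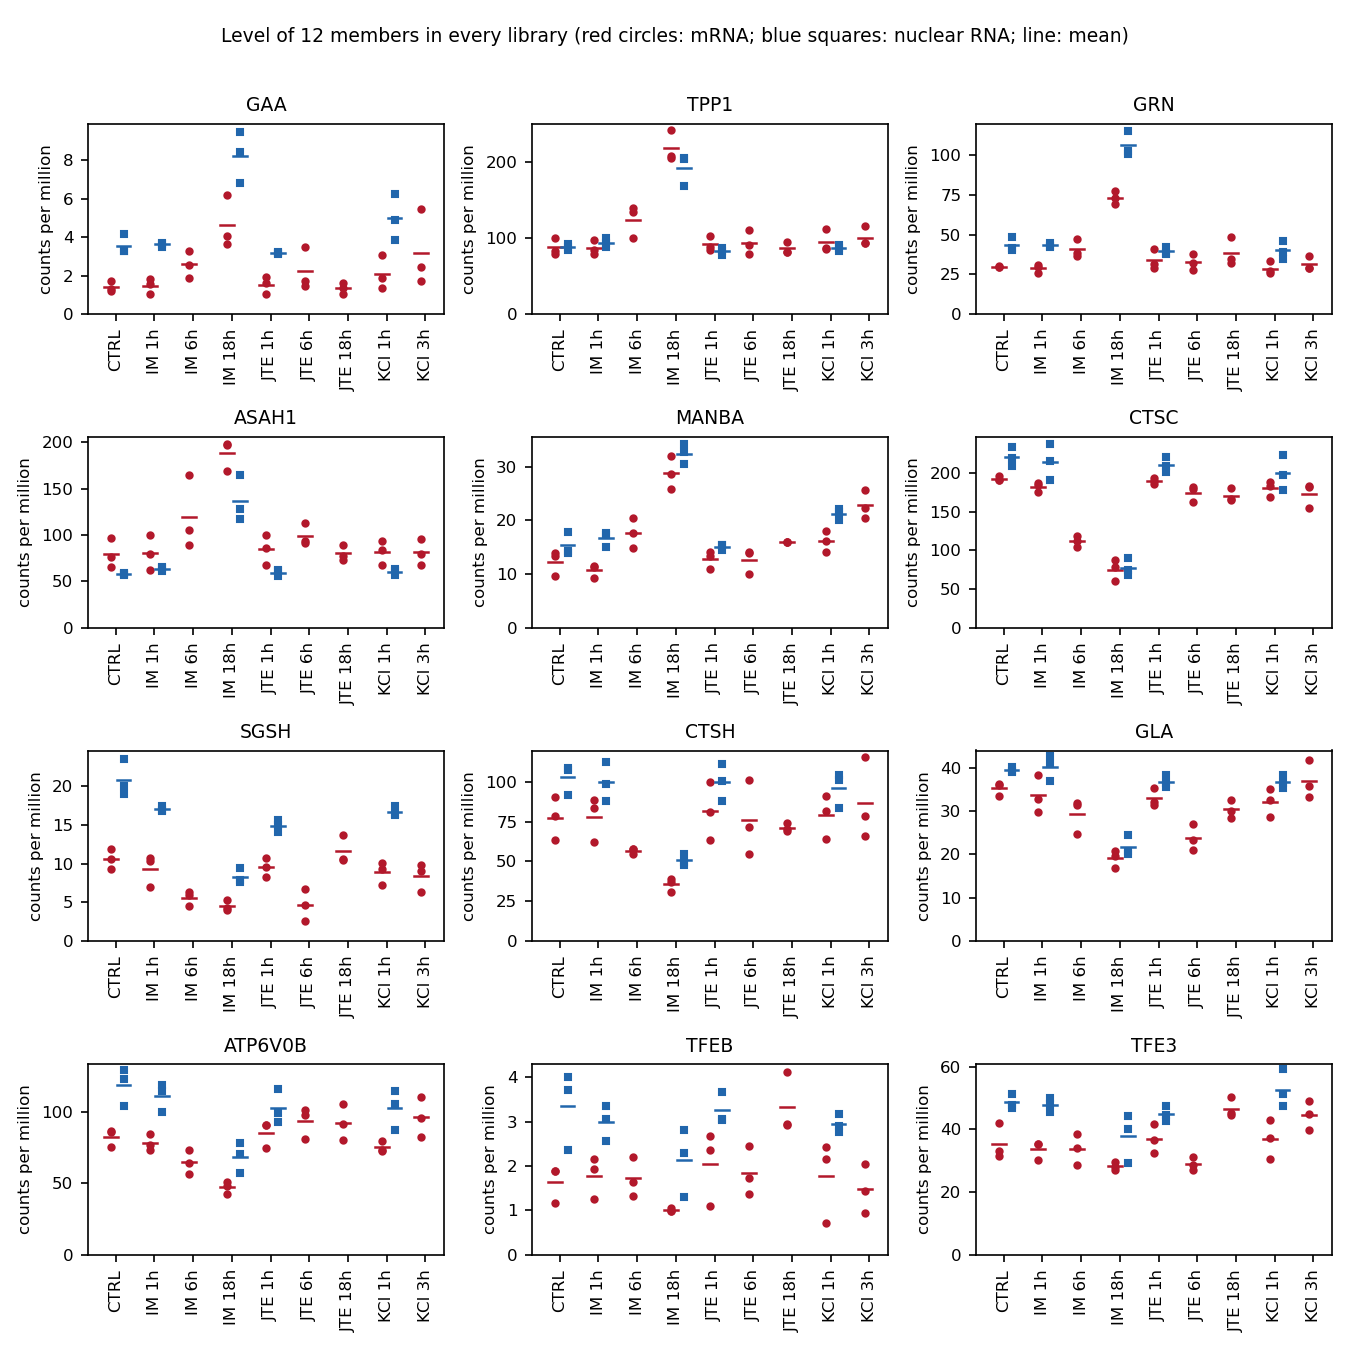
CPM of 12 members (y axes, from 0) in each library of each group (x axis); red circles are mRNA, blue squares nuclear RNA, and lines the means of 3 libraries. The 5 members that rose most and the 5 that fell most after 18 h of imatinib are shown with TFEB and TFE3; the IM 6h values of TPP1, MANBA and CTSC lie mostly between CTRL and IM 18h.

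In the main fit, on all mRNA libraries and without a replicate block, the transcription factors did not pass the test against CTRL at any time of any treatment. TFEB had 21 to 36 counts per CTRL library. It read 1.16, 1.89 and 1.9 CPM in CTRL, 1.94, 1.26 and 2.16 CPM in IM 1h, 2.2, 1.32 and 1.65 CPM in IM 6h and 0.977, 1.05 and 0.99 CPM in IM 18h. The 18 h libraries were just below the lowest CTRL library (-0.71 ± 0.42 on the log2 scale, edgeR adjusted p 0.185). In JTE 1h, 6h and 18h it read 2.36, 1.09 and 2.67, then 1.74, 1.37 and 2.44, then 2.94, 2.92 and 4.13 CPM, and the last group lay above all CTRL libraries without being called (1.01 ± 0.39 on the log2 scale, edgeR adjusted p 0.107). With the replicate number as a block and CTRL 1 and 2 exchanged, it was called higher there (1.03, edgeR adjusted p 0.00694). In KCl 1h and 3h the values were 2.43, 0.703 and 2.16 CPM and 2.06, 0.945 and 1.44 CPM, overlapping CTRL. Nuclear TFEB was called lower after 18 h of imatinib, from 2.37, 4.01 and 3.71 to 1.31, 2.29 and 2.81 CPM (-0.68 ± 0.25 on the log2 scale, edgeR adjusted p 0.0299). Its groups overlapped, and the call was lost in 5 of 11 alternatives, among them those without CTRL replicate 2, CTRL replicate 3 or IM 18h replicate 1. In the other nuclear groups TFEB read 3.07, 3.35 and 2.56 CPM (IM 1h), 3.05, 3.05 and 3.67 CPM (JTE 1h) and 2.77, 3.17 and 2.91 CPM (KCl 1h).

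TFE3, the more abundant of the pair, read 31.3, 41.9 and 33 CPM in CTRL and 35.3, 30.3 and 35.3, then 34, 38.5 and 28.7, then 29.7, 27.1 and 28.1 CPM after 1, 6 and 18 h of imatinib (-0.32 ± 0.14 on the log2 scale, edgeR adjusted p 0.0599 at 18 h). Its JTE values were 41.7, 32.4 and 36.5 CPM at 1 h, 27.1, 28.6 and 31.1 CPM at 6 h and 45.1, 50.2 and 44.6 CPM at 18 h, the last above CTRL (0.40 ± 0.14 on the log2 scale, edgeR adjusted p 0.0688). With KCl it read 43, 30.5 and 37.1 CPM at 1 h and 44.8, 39.8 and 48.9 CPM at 3 h, overlapping CTRL. In nuclear RNA it went from 46.7, 51.2 and 47.8 CPM in CTRL to 29.4, 40 and 44.2 CPM in IM 18h, lower in every library and short of the fold change threshold (-0.36 ± 0.13 on the log2 scale, edgeR adjusted p 0.0235). Other nuclear groups read 48, 50.1 and 45.5 CPM (IM 1h), 42.7, 47.4 and 44.7 CPM (JTE 1h) and 47.3, 59.2 and 51.3 CPM (KCl 1h).

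JTE-607 gave few calls. At 1 h none was called in mRNA (0.387% of genes higher, 0.464% lower; no member with an unadjusted p under 0.05) or in nuclear RNA (7.0% and 1.51%, with 3 members at an unadjusted p under 0.05). The lowest nuclear value was that of SGSH, 15.6, 15 and 14.1 CPM against 18.9, 20 and 23.6 CPM (-0.48 ± 0.12 on the log2 scale, edgeR adjusted p 0.00932), under the fold change threshold. Over the members the nuclear median was -0.10, against -0.01 over all genes, and 34 of 43 were negative against 50.9% of all genes. At 6 h, 2 members were called lower and none higher (6.47% and 6.73% of genes). SGSH read 4.65, 6.77 and 2.59 CPM (-1.19 ± 0.25 on the log2 scale, edgeR adjusted p 0.00139), all below CTRL, and NAGLU 3.29, 4.38 and 3.88 CPM against 6.5, 8.8 and 5.02 CPM in CTRL (-0.81 ± 0.25 on the log2 scale, edgeR adjusted p 0.0254), also without overlap. Both enzymes act in the breakdown of heparan sulfate. The NAGLU call was lost in 4 of 11 alternatives, including those without CTRL replicate 2, JTE 6h replicate 1 or JTE 6h replicate 3. Without CTRL replicate 3 or JTE 6h replicate 2 the count was 4. At 18 h SGSH was back at 10.6, 13.8 and 10.5 CPM and NAGLU at 4.61, 6.25 and 5.07 CPM, both overlapping CTRL.

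The single member called at 18 h of JTE-607 was SMPD1, higher at 13.9, 16.3 and 12.5 CPM against 7.61, 7.86 and 10.5 CPM in CTRL (0.72 ± 0.20 on the log2 scale, edgeR adjusted p 0.023), where 3.29% of genes were called higher and 2.09% lower. No member was called lower. The groups did not overlap, but the call was lost when replicate 1 or 2 of either group was left out, and 2 members were called without CTRL replicate 3. With the same block TFEB was called as well. ATP6V0D1, the V0 subunit d, was at 0.50 (edgeR adjusted p 0.00347), under the fold change threshold.

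Compared with each other at matched times, imatinib and JTE-607 differed more at 18 h than at 6 h in the number of members called. At 6 h, 3 were higher in IM and 1 lower (13.6% and 10.2% of genes). NAGLU (0.79), MCOLN1 (0.73) and CTSZ (0.70) were higher in IM and CTSC lower (-0.64), with edgeR adjusted p from 3.13e-05 for CTSC to 0.0181 for NAGLU. The count fell to 2 without JTE 6h replicate 3 and rose to 7 without JTE 6h replicate 2. At 18 h, 7 were higher in IM and 9 lower (16.7% and 13.6% of genes). The higher ones were GAA (1.78), TPP1 (1.34), ASAH1 (1.23), GRN (0.94), MANBA (0.85), NAGLU (0.76) and CTSD (0.65). The lower ones were TFEB (-1.72 ± 0.41 on the log2 scale, edgeR adjusted p 0.0015), SGSH (-1.34), CTSC (-1.19), CTSH (-1.0), ATP6V0B (-0.97), ATP6V0E1 (-0.78), TFE3 (-0.72 ± 0.14 on the log2 scale, edgeR adjusted p 0.000188), GLA (-0.66) and ATP6V1E1 (-0.60). For TFEB and TFE3 all 3 IM libraries were below all 3 JTE libraries, and both calls held in all 11 alternatives. CTSD lost the call without IM 18h replicate 2 or JTE 18h replicate 1 or 3, NAGLU without the same libraries, and GLA and ATP6V1E1 without IM 18h replicate 1.

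KCl gave 1 called member in mRNA. At 1 h none was called (2.51% of genes higher, 2.94% lower; 2 members with an unadjusted p under 0.05). At 3 h MANBA was called higher, 25.6, 20.6 and 22.3 CPM against 9.64, 13.3 and 14 CPM (0.89 ± 0.16 on the log2 scale, edgeR adjusted p 0.00029), with no overlap, where 4.55% of genes were called higher and 7.33% lower. Its KCl 1h libraries read 18.1, 14.1 and 16.2 CPM, above CTRL and below 3 h, and were not called (0.38 ± 0.16 on the log2 scale, edgeR adjusted p 0.213). The call at 3 h held in all 11 alternatives, while the count of members was 2 without CTRL replicate 3, KCl 3h replicate 1 or KCl 3h replicate 2. GAA had a larger fold change than MANBA but spread widely, at 2.45, 1.7 and 5.44 CPM (1.17 ± 0.41 on the log2 scale, edgeR adjusted p 0.0543). The replicate block with CTRL 1 and 2 exchanged called GAA (1.1, edgeR adjusted p 0.0123) and NEU1 (0.62, edgeR adjusted p 0.00184) as well. Between 1 and 3 h of KCl no member was called (1.37% and 1.92% of genes), and 6 had an unadjusted p under 0.05, a share not counted over all genes.

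In nuclear RNA 1 h of KCl was one of the conditions with most changes, with 15.3% of genes called higher and 8.5% lower. Of the members none was called higher and 1 lower. ATP6V0C read 1.12, 1.12 and 1.12 CPM against 1.65, 1.96 and 1.73 CPM in CTRL, with no overlap (-0.67 ± 0.24 on the log2 scale, edgeR adjusted p 0.0418). It had 21 to 24 counts per treated library, most of its exon bases are shared with another gene, and the call was lost in 8 of 11 alternatives, among them each that leaves out 1 CTRL or KCl library. Its values in mRNA, 1.32, 1.1 and 0.669 CPM in CTRL and 1.4, 0.72 and 1.26 CPM in KCl 1h, overlapped. Without CTRL replicate 2 or KCl 1h replicate 1, GAA was called higher instead (0.61 and 0.64, edgeR adjusted p 0.0426 and 0.0138). MANBA, at 20.1, 22.1 and 21.6 CPM against 14, 17.8 and 14.2 CPM, was higher without overlap and under the fold change threshold (0.47 ± 0.12 on the log2 scale, edgeR adjusted p 0.00326). HEXA was at -0.40 and NAGLU at -0.39 (edgeR adjusted p 0.00639 and 0.0472). The 4 macrophage markers summed to between 1.74 and 2.53 CPM in nuclear CTRL and between 10.4 and 20.8 CPM in nuclear KCl 1h. Most of both sums was CSF1R, at 1.61, 1.82 and 2.38 CPM in CTRL and 9.33, 11.45 and 19.0 CPM in KCl 1h. In KCl 1h CD14 read 0.64, 0.838 and 0.873 CPM, MRC1 0.427, 0.419 and 0.922 CPM, and MARCO had no counts. The part of these markers in the members' values was not tested.

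The interaction of KCl 1h with the fraction called no member (0.588% of genes higher in nuclear RNA, 0.0806% lower), and 2 had an unadjusted p under 0.05. The signs leaned 1 way: the nuclear response was below the mRNA response in 41 of 43 members, with a median difference of -0.19, against 59.8% of all genes and a median of -0.07. The medians of members and of all genes were -0.12 and -0.0022 with RLE normalization, -0.13 and 0.13 with DESeq2, and -0.15 and 0.04 with no low-count filter. The 6 membrane proteins had differences between -0.29 and -0.24, the 8 peptidases between -0.35 and -0.09. None of these differences was called. Depth differed too, as KCl 1h mRNA replicates 2 and 3 were the deepest libraries, and its part in this lean was not tested.

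**Figure D5:**
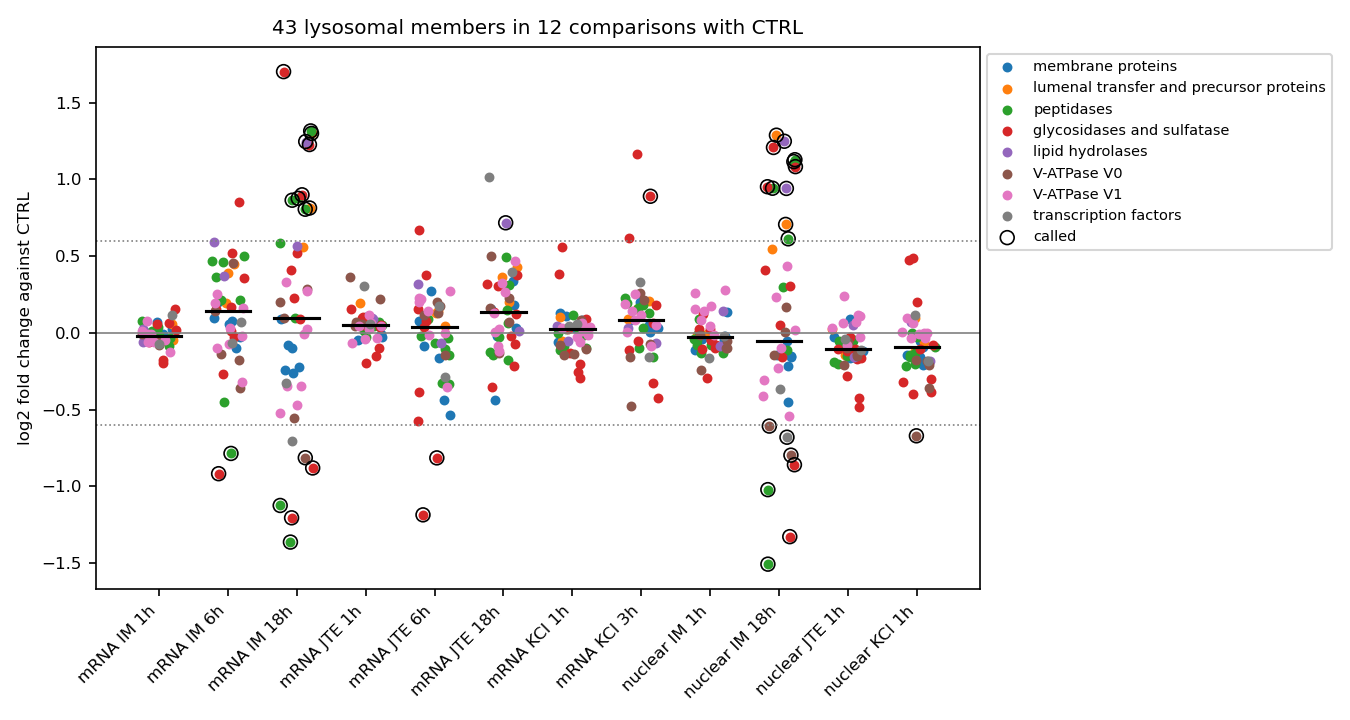
Log2 fold change (y axis) of the 43 tested members in each of the 12 comparisons with CTRL (x axis), coloured by role; black rings mark called members, thick lines the median over members, and dotted lines 0.6 either way. Ringed points are most frequent in IM 18h mRNA and nuclear RNA, with 15 and 18, and absent from every 1 h group of mRNA and from nuclear IM 1h and JTE 1h.

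In each comparison in which edgeR called no member, DESeq2 called none either. Over the 12 comparisons with CTRL, 20 of the 43 members tested in both fractions (46.5%) were called at least once, against 60.1% of the 16728 genes tested in both, and no member was called both higher and lower. SGSH was lower with imatinib at 6 and 18 h and with JTE-607 at 6 h, and MANBA was higher with imatinib at 18 h and with KCl at 3 h. These comparisons share their CTRL libraries.

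Transcripts of neighbouring genes can run into members. An expressed gene lies upstream on the same strand within 10000 bases for 5 members (CTSA, NEU1, ATP6V0B, ATP6V0C and ATP6V1F), the closest being SLC44A4, 286 bases before NEU1. An expressed convergent gene lies within that distance for 4 (CTSB, CTSZ, GLA and GUSB), the closest being NELFCD, 52 bases from CTSZ. In nuclear JTE 1h the 5 had a median log2 fold change of -0.15, the 4 a median of -0.14 and the other 34 a median of -0.08. After KCl 1h in nuclear RNA these medians were -0.21, -0.18 and -0.07. None of the 9 was higher in nuclear JTE 1h. Counting did not use strand, so antisense reads would be included.

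Of 147 further genes of the pathway, 137 were tested in mRNA and 37 were called higher and 12 lower in IM 18h, with a median log2 fold change of 0.20 against 0.04 over all genes (17.2% and 13.2% of all genes were called). The further genes were listed with earlier results of these data known. Among 31 tested of 33 other hydrolases 14 rose and 4 fell. LGMN, asparaginyl endopeptidase, rose by 3.19 on the log2 scale and SCPEP1, a carboxypeptidase, by 2.16, whereas NAAA, an acid amidase, was at -1.72 and ARSB, a sulfatase, at -0.99 (edgeR adjusted p 0.000896, 3.8e-05, 1.88e-05 and 0.000147). LGMN had 3 to 7 counts per CTRL library (0.165, 0.367 and 0.279 CPM) and read 5.27, 1.05 and 1.27 CPM in IM 18h, with replicate 1 far above the others. Without that library its value was 2.07 (edgeR adjusted p 0.0231). Of 28 tested of 29 other membrane and lumenal proteins 10 rose, led by GPNMB (3.09) and the amino acid transporter SLC36A1 (1.19), and 3 fell, led by LAPTM4B (-1.79) and TMEM192 (-1.01). GPNMB had only 3 to 9 counts per CTRL library (0.165, 0.472 and 0.167 CPM) and read 3.69, 1.53 and 1.82 CPM in IM 18h. Without IM 18h replicate 1 the value of GPNMB was 2.60 (edgeR adjusted p 0.00215).

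Among 15 tested of 19 other V-ATPase subunits and accessory proteins, 5 rose and 3 fell in IM 18h mRNA, where 17.2% of all genes were called higher and 13.2% lower. ATP6V0E2, a paralogue of ATP6V0E1, rose by 1.05 and DMXL1 by 1.02, whereas the assembly factors TMEM199 and VMA21 were at -0.96 and -0.85 (edgeR adjusted p 2.8e-06, 0.000123, 0.00176 and 4.83e-06). Of 20 genes for sorting to the lysosome 3 rose, led by SUMF1 (1.32), which activates sulfatases, and GNPTG (0.71; 0.58, under the threshold, without CTRL replicate 2), and 1 fell, the receptor SORT1 (-1.01). Of 23 tested of 24 autophagy genes 5 rose, led by OPTN (2.58), an autophagy receptor, and ATG14 (1.37), and 1 fell, ATG5 (-0.69). None of the 20 tested genes of the TFE family and mTORC1 inputs was called in mRNA, while in nuclear RNA 2 were called higher and 2 lower. In mRNA 10 of the 20 had an unadjusted p under 0.05. That share was not counted over all genes, so it cannot be set against a background. In nuclear IM 18h, 32 of 139 tested further genes were called higher and 13 lower, against 17.2% and 15.4% of all genes.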

How the data were processed

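K562 cells gave 27 poly(A) mRNA libraries and 15 libraries of nuclear RNA, the latter after removal of ribosomal RNA, with 3 replicates in each group. The deposited tables hold raw, unnormalized counts. According to their methods, the authors trimmed and deduplicated reads, aligned them with STAR to hg38 keeping unique hits, and counted pairs over exons with featureCounts with no strand option. Removing duplicates without molecular identifiers can lower the most abundant transcripts. The annotation release was not given in the sources used here. Symbols came from GENCODE 44, which holds 57532 of the 58243 IDs.

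edgeR 4.0.16 (R 4.3.3; quasi-likelihood, robust, TMM, filterByExpr) was fitted once per fraction, on every library of it, and p-values were adjusted by Benjamini-Hochberg across the genes tested. A call required an adjusted p below 0.05 and an absolute log2 fold change over 0.6. The standard error is the fold change divided by the square root of the F statistic. Common dispersion came to 0.0284 (mRNA) and 0.0176 (nuclear). The pipeline was tested on simulated data first. Alternatives were DESeq2 1.42.0, RLE normalization, no filter, no fold change threshold, only the 2 groups, a replicate block, and leaving out each library.

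The members, the further lists and the motifs were chosen with earlier results of these data known. The called members of each comparison were named, at most 8 per direction, with TFEB and TFE3 always. Every library was given for those 2, for the 5 largest rises and falls in IM 18h mRNA, and for the 2 largest calls of other comparisons with CTRL. Members named past 8 (10 higher in IM 18h mRNA, 11 in nuclear RNA, 9 lower against JTE 18h) and other values beside them were chosen after they were seen. From each further list up to 2 called rises and 2 falls were named.

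The labels number the replicates. Same-number nuclear libraries deviated together, with correlations to CTRL over 9308 genes of 0.235 to 0.891, so the numbers pair them. In mRNA only replicate 3 did so with CTRL. The study's table of library sizes lists the totals of mRNA CTRL 1 and 2 in the reverse of the deposited columns. With these numbers exchanged, same-number correlations to CTRL over 8817 genes ran from 0.0553 (JTE 18h, replicate 3) to 0.877, so a block with them exchanged was added after the data were seen. Group membership and fits without a block do not depend on it.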

Additional observations from a re-analysis of the deposited data

How the results depend on the processing

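The 15 calls in IM 18h mRNA held in all 11 alternatives that kept the fold change threshold. With no fold change threshold, 5 members were called in IM 6h and 25 in IM 18h mRNA against CTRL. The counts were 6 in JTE 6h, 4 in JTE 18h and 3 in KCl 3h mRNA. Between treated mRNA groups they were 12 in IM 18h against IM 6h and 14 in IM 6h against JTE 6h. For IM 18h against JTE 18h the count was 27. In nuclear RNA it was 27 in IM 18h, 1 in JTE 1h and 7 in KCl 1h. Shares over all genes with no fold change threshold were not counted, so these counts cannot be set against a background. With only the 2 groups fitted the members called were 1 in JTE 6h and 2 in JTE 18h mRNA. Without the low-count filter they were 2 in JTE 18h, 3 in KCl 3h and 0 in nuclear KCl 1h. DESeq2 gave 2 in KCl 3h and 0 in nuclear KCl 1h. The replicate block gave 2 in JTE 18h and 3 in KCl 3h, both as labelled and with mRNA CTRL 1 and 2 exchanged, the latter chosen after seeing the data. In the remaining comparisons, nuclear RNA included, it moved no count by over 1.5 times, and the exchanged block lost no call. Leaving out 1 library at a time gave 1 to 5 in IM 6h, 1 to 4 in JTE 6h, 0 to 2 in JTE 18h, 1 to 2 in KCl 3h, 2 to 8 in IM 18h against IM 6h, 2 to 7 in IM 6h against JTE 6h and 0 to 1 in nuclear KCl 1h. In nuclear KCl 1h the single call was 1 higher in place of 1 lower without CTRL replicate 2 or KCl 1h replicate 1. Leaving the exchanged block aside, 41 alternative values moved by over 1.5 times and 185 did not. The cause was not tested. Members with few counts, such as TFEB, GAA and ATP6V0C, have standard errors that leave moderate changes undetectable.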
